A study of Mus musculus with 18 samples.

Results

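In the library of microdissected pubertal ducts, 142 of 734 basal cells held at least 1 unique molecular identifier (UMI, a count of 1 captured RNA molecule) of Lgr5. These 142 Lgr5-positive basal cells, chosen by their measured Lgr5 and keratin counts, are described here against the other 592 basal cells, in which no Lgr5 UMI was counted. A cell was kept if it had 500 or more detected genes and under 20% of its UMIs from mitochondrial genes, and it was called basal if its Krt5 and Krt14 UMIs together exceeded its Krt8 and Krt18 UMIs. Of 1973 barcodes in the duct library, 1745 passed these limits. The whole series held 149371 barcodes in 18 libraries.

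The duct library came from 5-week-old E-cadherin-GFP females on the C57BL/6 background, and the paired library of terminal end buds (TEBs), the growing tips of the pubertal ductal tree, was dissected from glands of such females and processed alongside. GFP, carried by the E-cadherin allele in both, guided the dissection, and lineage-negative CD24+CD29+ cells pooled from several animals were sorted. The other libraries came from C57BL/6 mice at E18.5 (embryos carrying an Lgr5-GFP allele), postnatal day 5, 2.5 weeks (pre-puberty) and 10 weeks, from SWISS mice at 10 weeks, and from FVB/NJ mice at 10 weeks (3 libraries), at pregnancy days 12.5 and 18.5 and lactation day 10 (2 each), and post-involution (1, labelled 3 weeks post birth). Each duct and TEB group was 1 library, so no test between cells was made there, and intervals cover counting error only.

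Lgr5 is a receptor for R-spondins, secreted proteins that raise WNT signalling by protecting WNT receptors at the cell surface. It marks stem cells in several epithelia. Mammary basal cells line the outside of the ducts, and many are contractile myoepithelial cells that squeeze milk from the gland in response to oxytocin. The gene lies on chromosome 10 of the mouse genome (mm10, 115450311 to 115587780, minus strand).

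Lgr5 was counted at low level in the members. A single Lgr5 UMI was found in 93 of them (65.5%), 35 held 2, 10 held 3 and 4 held 4. The members' median depth was 11055 UMIs and 3024 genes, against 11794 UMIs and 3089 genes in the Lgr5-negative basal cells. Since 1 UMI decided membership in most of the cells, a cell with 0 Lgr5 UMIs cannot be read as a cell without Lgr5 RNA. At the boundary of the basal class, 14 members had an excess of basal over luminal keratin UMIs of 10 or less, the smallest being 1. Outside it, 1 cell with Lgr5 was tied and 12 were luminal by the same rule, and 3 others were lost to the limits on genes or mitochondrial share.

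The Lgr5-positive share was far above the share in luminal cells of the same library. Unthinned, it was 19.3% (95% exact binomial interval 16.5% to 22.4%) in basal cells at a median of 11556 UMIs and 1.20% (0.621% to 2.08%) in luminal cells at a median of 15953 UMIs. With each cell thinned at random to 5000 UMIs, 72 of 712 basal cells (10.1%, 8.0% to 12.6%) and 4 of 975 luminal cells (0.410%, 0.112% to 1.05%) kept a Lgr5 UMI. The level of Lgr5, in UMIs scaled to a common library total of 1000000 (CPM), was 20.1 in all duct basal cells and 1.02 in luminal cells.

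Lgr5 was nearly absent from TEB basal cells. A single one of 187 TEB basal cells (0.535%) held a Lgr5 UMI, at a median of 22333 UMIs, which was deeper than the duct cells. After thinning to 5000 UMIs none of 186 did, and a limit of 3 counts then allows a share of cells with a UMI of up to 1.61%. The 95% intervals of the duct and TEB shares did not overlap, but each is 1 library, so the difference has no replicate check among these libraries. From a chromatin accessibility assay on repeat samples, the study reports an accessible Lgr5 start site in ductal cells. It also cites earlier work that places Lgr5 expression in basal cells of ducts. The duct and TEB libraries shared 8 barcodes, none of which belonged to a member.

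**Figure D1:**
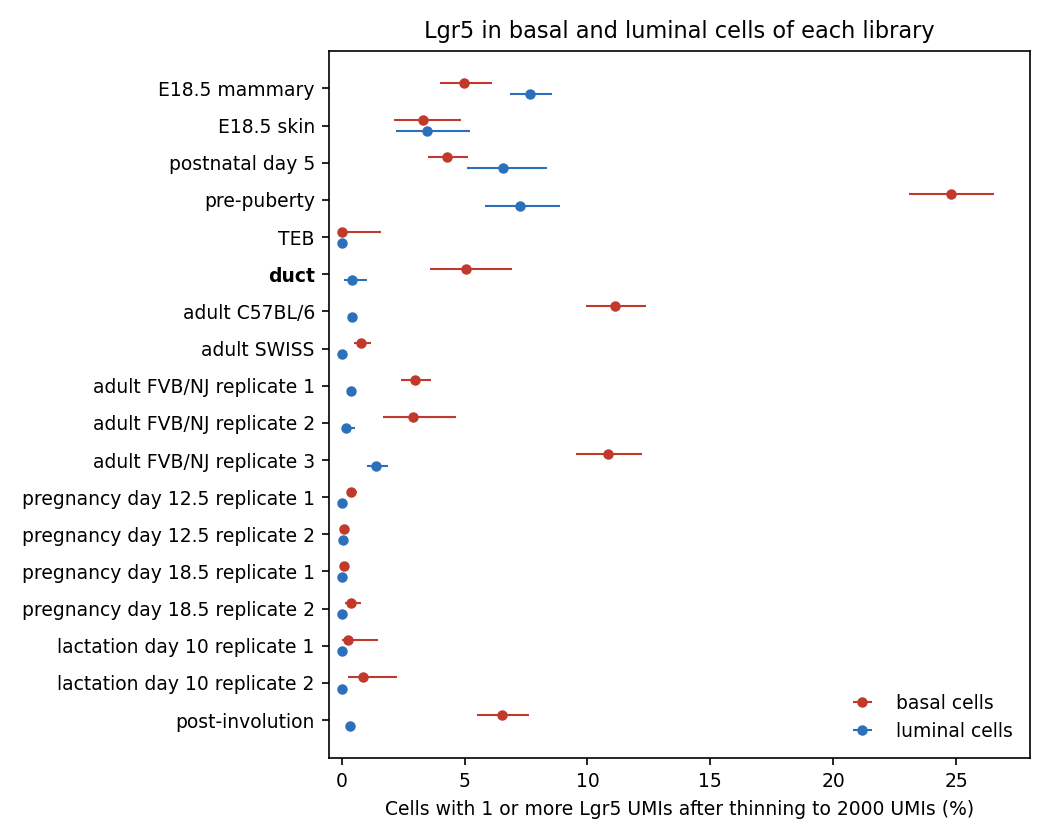
Share of cells with at least 1 Lgr5 UMI after thinning every cell to 2000 UMIs, in percent, for basal (red) and luminal (blue) cells of each library; bars are 95% exact binomial intervals, ending at 3 cells of the total where no cell held Lgr5. The duct library stood at 5.08% in basal and 0.402% in luminal cells, above the TEB library and below the pre-puberty and adult C57BL/6 libraries.

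Among the C57BL/6 libraries the duct share was intermediate. At 2000 UMIs per cell, Lgr5 was found in 24.8% of pre-puberty basal cells, 11.1% of adult basal cells, 5.08% of duct basal cells, 4.27% at postnatal day 5 and 0% in the TEB library. The intervals of the duct and the postnatal day 5 share overlapped. At postnatal day 5 the luminal share was higher than the basal one (6.58% against 4.27%), and at E18.5 it was 7.66% against 4.98%. At E18.5 both names refer to the keratin rule alone, as the study saw little evidence of separate lineages at that stage. The postnatal day 5 cells called basal also held RNA of 12 genes of epidermis and hair follicle. These summed to 1960 CPM in Lgr5-positive and 10696 CPM in depth-matched Lgr5-negative cells. The postnatal day 5 share, and its overlap with the duct share, thus refer to cells called basal by keratins. The share in mammary basal cells alone was not tested. The plot of Lgr5 by library shows these shares.

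Over the 4 FVB/NJ stages with replicate libraries, Lgr5 in basal cells was highest in the adult but varied widely among its libraries. The mean level was 30.8 ± 21.6 CPM (SD, n = 3) in adult libraries, 1.36 ± 0.849 (n = 2) at pregnancy day 12.5, 1.65 ± 1.43 (n = 2) at pregnancy day 18.5 and 2.12 ± 2.03 (n = 2) in lactation. Each adult library (12.8, 24.8 and 54.8 CPM) was above each of the others. Those others held few Lgr5 UMIs in basal cells. They were 29 and 21 at pregnancy day 12.5, 7 and 24 at pregnancy day 18.5, and 2 and 11 in lactation. An exact two-sided permutation test of the difference among stages over all 7560 assignments gave p = 0.0944 for the level and 0.174 for the share at 2000 UMIs, both 0.174 after adjustment over the 2 measures.

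The duct members held basal keratins by the rule itself, and their marker levels were somewhat above or near those of their Lgr5-negative neighbours. Levels are CPM over the summed cells, each thinned to 5000 UMIs (138 members with 690000 UMIs and 574 Lgr5-negative cells with 2870000 UMIs). Krt14 and Krt5, which the rule used, stood at 1845 and 930 CPM against 1648 and 748, ratios of 1.12 (1.05 to 1.19) and 1.24 (1.14 to 1.36). Krt8 and Krt18, which the rule also used, stood at 309 and 104 CPM against 264 and 93.4. In unthinned cells the median share of luminal keratins in a cell's keratin UMIs was 13.0% in members and 13.2% in the Lgr5-negative cells. Trp63, a transcription factor of basal epithelia that the rule did not use, was at 135 against 124 CPM (ratio 1.08, 0.853 to 1.365). Mki67 or Top2a, markers of cycling cells, were found in 19.7% of unthinned members and 18.8% of unthinned Lgr5-negative cells. At 5000 UMIs Mki67 was at 47.8 against 29.3 CPM (ratio 1.63, 1.06 to 2.47), in 12.3% against 8.54% of cells, and Top2a at 71.0 against 52.3 CPM (1.36, 0.963 to 1.89).

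Few genes separated the members from the other basal cells of the duct. Of 5186 genes with a mean of 20 CPM or more, other than those the rule used, 3 were past 2-fold higher (0.0578%) and 7 past 2-fold lower (0.135%) on the scale log2(CPM + 10), with a median difference of -0.01 and 49.0% of genes above 0. The higher ones included Slpi and Map1b. The lower ones were Csn3, Csrp2, Dcn, Cdkn1c, Thumpd1, Mrpl37 and Zwint. A difference at this scale is a description of 1 library, and with other random draws or depths several of the weaker genes fell below 2-fold.

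**Figure D2:**
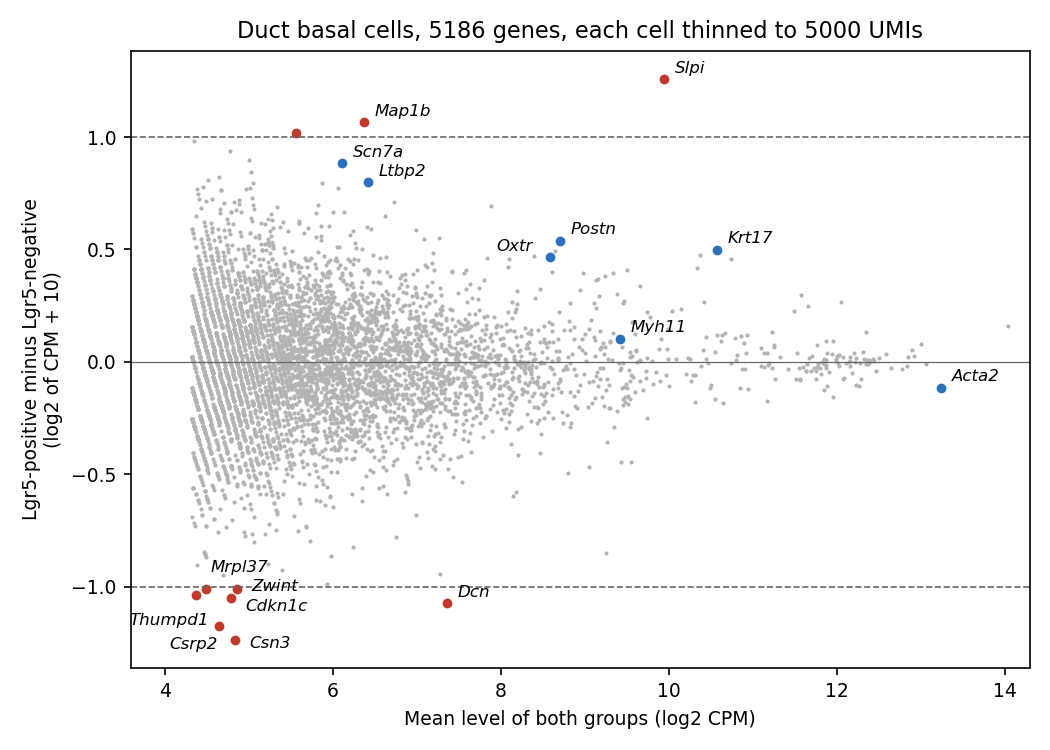
Difference between Lgr5-positive and Lgr5-negative duct basal cells (log2 of CPM + 10) against the mean level (log2 CPM) for 5186 genes, each point 1 gene. Red points lie past the dashed 2-fold lines, and blue points are other genes named in the text; Slpi and Dcn were the red points of highest level.

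Slpi, a secreted inhibitor of leukocyte proteases (chromosome 2, 164354070 to 164389095, minus strand), had the largest difference. It stood at 1396 CPM in members and 577 CPM in Lgr5-negative cells, a ratio of 2.42 (95% interval 2.23 to 2.62), and was detected in 57.2% against 31.7% of cells. Expression was uneven: the 5 highest of the 138 members held 35.0% of the members' Slpi UMIs, with 154 in the highest cell, and the median was 1 UMI in members and 0 in Lgr5-negative cells. The log2 difference ran from 0.73 with 10000 UMIs per cell to 1.98 among cells with 2 or more Lgr5 UMIs, and was 2.37 without cells over 5% luminal keratin, where 17 members remained. Luminal cells of the duct stood at 31.4 CPM.

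Dcn, which encodes decorin, a small proteoglycan of the extracellular matrix (chromosome 10, 97479609 to 97518143, plus strand), was the most highly expressed gene past 2-fold in the other direction. It stood at 103 CPM in members and 228 CPM in Lgr5-negative cells, a ratio of 0.452 (0.349 to 0.578), in 26.8% against 48.3% of cells. Dcn also is a fibroblast gene. Of the 10 fibroblast genes listed, 8 had 0 UMIs in members, and the list summed to 110 CPM in members and 275 CPM in Lgr5-negative cells, of which Dcn held 103 and 228 CPM. The other 9 genes summed to 7.25 CPM (5 UMIs) and 47.7 CPM (137 UMIs). Col3a1 was at 0 UMIs in members and was found in 1.05% of Lgr5-negative cells. Without cells holding any UMI of those 9 genes, an alternative added after the data were seen that left 121 members and 494 Lgr5-negative cells, the log2 difference of Dcn was -1.12 beside -1.07 with all cells.

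Map1b, a microtubule-associated protein, stood at 116 against 50.2 CPM, a ratio of 2.31 (1.74 to 3.06). Its difference stayed between 0.66 and 1.43 on the log2 scale over the alternatives, apart from that with few cells. Csn3, the milk protein kappa-casein, was at 13.0 against 44.2 CPM, and 5 Lgr5-negative cells held 37.0% of that group's UMIs. Luminal cells held 2488 CPM of Csn3.

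The other low genes were sparse. Csrp2, a LIM-domain protein, was at 11.6 against 38.7 CPM, and Cdkn1c, an inhibitor of cell-cycle kinases, at 14.5 against 40.8 CPM. Just inside 2-fold were Grik3 (a glutamate receptor subunit, log2 0.98), Scn7a (a sodium channel family member, 0.88) and Ltbp2 (a matrix glycoprotein, 0.80) on the high side. On the low side were Serpinf1 (-0.99) and Igfbp4, a binding protein of insulin-like growth factors (-0.94). Among the 12 highest and 12 lowest genes, the remaining ones were Fnbp1, Kansl1l, Gpbp1l1, Aoc3, Cab39l and Cop1 at 0.80 to 0.94, and Scfd1, Meg3 and Tcf7 at -0.95 to -0.90.

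Levels by the number of Lgr5 UMIs per cell split the contrast from which these genes were chosen, and are a description. The level of Slpi was 577 CPM (95% Poisson interval 550 to 606) in cells with 0 Lgr5 UMIs, 876 CPM (791 to 966) in the 90 with 1, and 2371 CPM (2180 to 2574) in the 48 with 2 or more. It was detected in 31.7%, 51.1% and 68.8% of these cells, although the 5 highest cells held 58.2% of the UMIs in the last group. In TEB basal cells, a single one of which held Lgr5 before thinning, 1 Slpi UMI was counted in 186 cells (1.08 CPM).

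Postn (periostin, a matrix protein), Ltbp2 and Scn7a had the same order of levels, with overlapping intervals between 1 and 2 or more Lgr5 UMIs. Postn was at 339, 476 and 538 CPM over the 3 groups of duct cells, and at 0 UMIs in TEB basal cells. Scn7a was at 45.6 CPM with 0 and 88.9 CPM with 1 Lgr5 UMI, and also at 0 in TEB basal cells, where a limit of 3 counts allows up to 3.23 CPM. Ltbp2 was at 59.9, 102 and 129 CPM, against 1.08 CPM in TEB basal cells. Oxtr, the oxytocin receptor, was at 323, 424 and 496 CPM, and at 46.2 CPM in the TEB. TEB levels of most other genes higher in members are not given here, so these genes do not show a general order.

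Igfbp4, Ccnd2 and Nrg1, which were lower in members, were at higher levels in TEB basal cells than in either group of duct cells. The study had named Ccnd2 and Nrg1 for TEB basal cells from these same libraries, so their TEB level is not independent evidence. TEB levels of most other low genes are not given here. Igfbp4 was at 528 CPM in TEB basal cells, 207 CPM in Lgr5-negative and 103 CPM in Lgr5-positive duct cells. Ccnd2, a D-type cyclin, was at 477, 342 and 223 CPM in the same order. Nrg1, a ligand of ERBB receptors, was at 69.9, 48.1 and 29.0 CPM. Its intervals in TEB (53.9 to 89.1) and Lgr5-negative duct cells (40.4 to 56.8) overlapped. Dcn did not follow this order, with 61.3 CPM in TEB basal cells. The comparisons with the TEB and between the duct groups share the Lgr5-negative cells, and the TEB is 1 library.

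**Figure D3:**
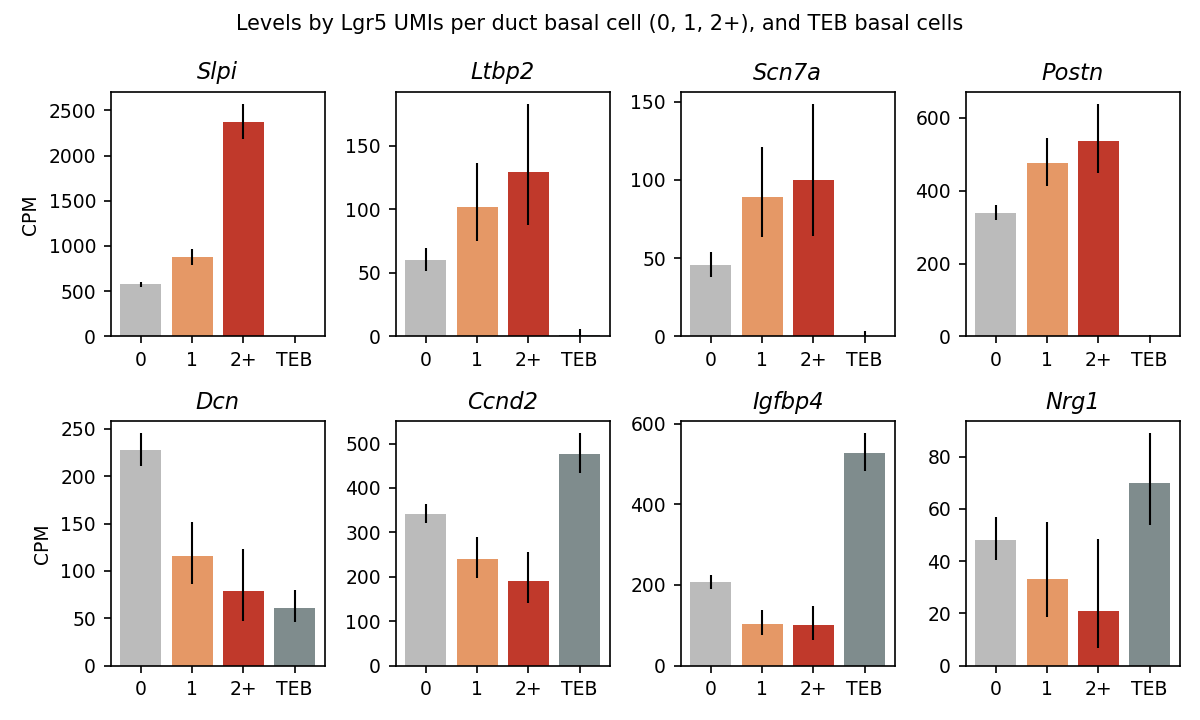
Level in CPM, each cell thinned to 5000 UMIs, of 8 genes in duct basal cells with 0, 1 and 2 or more Lgr5 UMIs (574, 90 and 48 cells) and in 186 TEB basal cells; bars start at 0 and lines are 95% exact Poisson intervals for counting error, ending at 3 UMIs where the count was 0. The 8 genes were picked from those named in the text. Slpi went from 577 to 2371 CPM across the duct groups, and Slpi, Scn7a, Postn and Ltbp2 were at or near 0 in TEB basal cells.

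The same contrast was then made in the other libraries, which the choice of duct cells did not use. In 11 libraries with 20 or more Lgr5-positive basal cells, these were matched 1 to 1 on total UMIs with Lgr5-negative basal cells, summed, and tested with the library as a block by edgeR's quasi-likelihood test. Of 6891 genes apart from those of the rule, 26 (0.377%) passed a Benjamini-Hochberg adjusted p of 0.05, 15 of them higher (0.218%) and 11 lower (0.16%) in Lgr5-positive cells, and 509 had an unadjusted p under 0.05. DESeq2 called 37. The TEB library, both lactation libraries and pregnancy day 18.5 replicate 1 held 1 to 8 such cells and did not enter. The E18.5 mammary library was left out as not yet split into basal and luminal cells, and the E18.5 skin library as not mammary.

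The postnatal day 5 library stood apart from the other 10. Its Lgr5-negative basal cells held 10696 CPM over 12 genes of epidermis and hair follicle and its Lgr5-positive cells 1960 CPM, whereas either group of the other libraries held 16.6 to 107.6 CPM. Krt1 and Krt10, keratins of differentiating epidermis, were at 430 and 513 CPM in its Lgr5-positive and 3766 and 3685 CPM in its Lgr5-negative cells. Krt14 (3033 against 9384 CPM) and Krt5 (1971 against 4563 CPM) were lower in its Lgr5-positive cells, and Acta2 (3669 against 1318 CPM), Myh11 (202 against 71.6 CPM) and Oxtr (96.6 against 20.7 CPM) were higher. Erythroid genes summed to 0.951 against 1014 CPM there, to 3184 against 15661 CPM in pre-puberty and to at most 9.79 CPM elsewhere. The part of these cells in the differences was not tested. Without postnatal day 5, 102 of 5992 genes (1.7%) were called, 45 higher (0.751%) and 57 lower (0.951%), among them 24 of the 26, all but Abcg2 and Dlk2.

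Slpi and Dcn, the genes that stood out in the duct, also stood out in the other libraries. Slpi in Lgr5-positive basal cells ran from 26.2 to 5111 CPM over the 11 libraries (median 1437), and from 2.68 to 3034 CPM (median 659) in Lgr5-negative cells. It was higher in the positive cells of 11 of 11 libraries, with a log2 difference of 1.07 ± 0.158 (SE, edgeR adjusted p = 0.00179), and 0.93 without postnatal day 5 (edgeR adjusted p = 3.385e-07). Dcn ran from 21.8 to 440 CPM (median 98.5) in positive and 24.7 to 783 CPM (median 236) in negative cells. It was lower in 11 of 11 libraries, by a log2 difference of -1.07 ± 0.162 (edgeR adjusted p = 0.00194), and -0.99 without postnatal day 5 (edgeR adjusted p = 5.44e-05). The other 9 fibroblast genes summed to 9.79 to 567 CPM in positive and 0 to 892 CPM in negative cells, higher in some libraries and lower in others. Across libraries the levels of both genes overlapped widely between the groups, and the size of the difference within a library varied. The ratio of Slpi ran from 1.10 in pregnancy day 12.5 replicate 2, with 21 and 19 UMIs, to 9.79 at postnatal day 5, with 138 and 14 UMIs, and up to 5.78 in the other libraries. That of Dcn ran from 0.200 post-involution to 0.883 in pre-puberty.

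**Figure D4:**
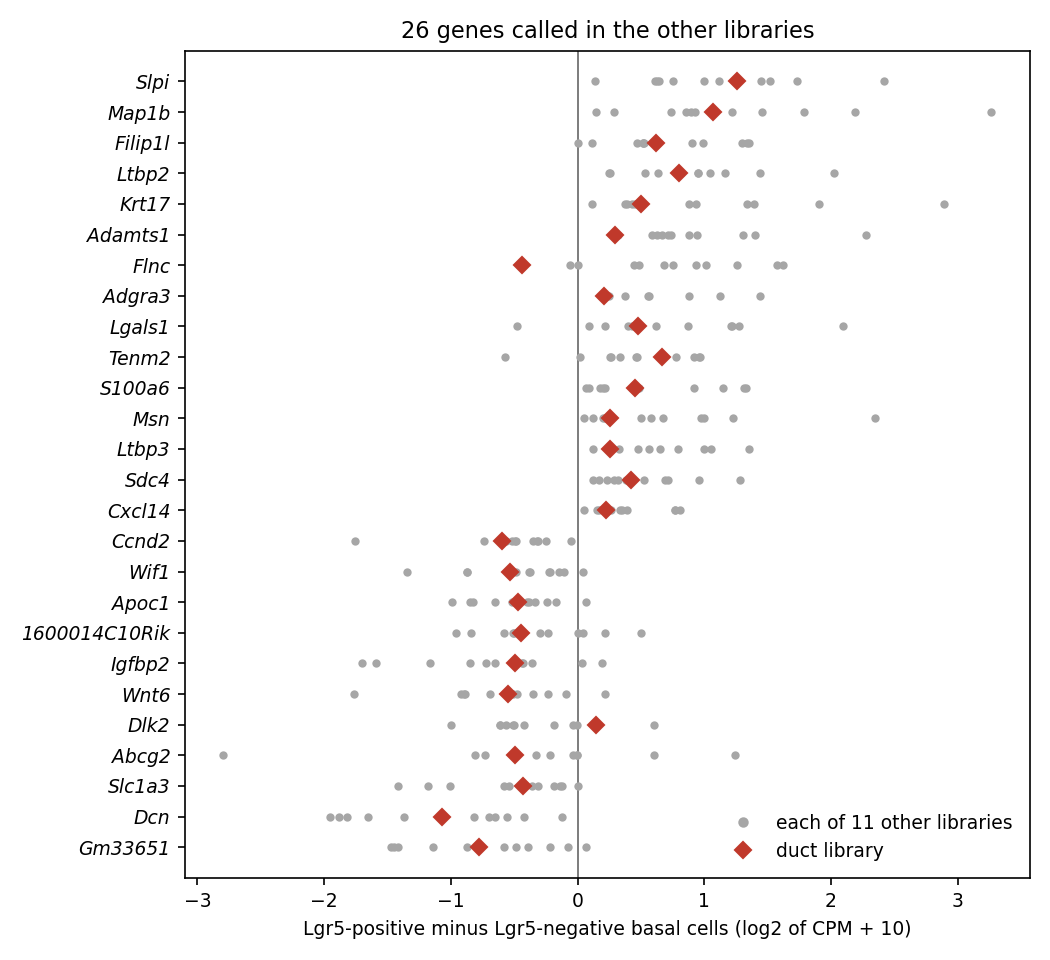
Difference between Lgr5-positive and Lgr5-negative basal cells (log2 of CPM + 10) for the 26 genes called in the other libraries; grey points are the 11 libraries and red diamonds the duct library, which was not in the fit. Slpi and Dcn lay on 1 side of 0 in every library, and the duct values of Flnc and Dlk2 lay on the opposite side from the fitted difference.

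Adamts1, Map1b, Ltbp2 and Krt17 were among the genes that rose besides Slpi. Adamts1, a secreted metalloprotease of the matrix, rose by a log2 difference of 0.75 ± 0.096 (edgeR adjusted p = 3.59e-04) and was higher in 11 of 11 libraries. Map1b (0.88 ± 0.175, edgeR adjusted p = 0.0213), Ltbp2 (0.77 ± 0.151, 0.0204) and Krt17, a basal keratin (0.77 ± 0.148, 0.0191), also were higher in 11 of 11 libraries. Filip1l (0.77), Flnc, an actin crosslinker (0.70), Adgra3, an adhesion receptor (0.64), Lgals1, a galectin (0.60), and Tenm2, a teneurin (0.59), completed the 10 largest. The other 5 were S100a6 (0.57), Msn (0.56), Ltbp3 (0.51, or 0.33 without postnatal day 5), Sdc4 (0.45) and Cxcl14 (0.33).

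In the duct library, Krt17 was at 1794 against 1267 CPM and was detected in 99.3% against 90.8% of cells. Adamts1 was at 174 against 140 CPM, a ratio of 1.24 (1.01 to 1.53). Ltbp2 was at 112 against 59.9 CPM, a ratio of 1.86 (1.40 to 2.45). Flnc was too low in the duct to compare, with 3 UMIs in members and 27 in Lgr5-negative cells.

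Genes that fell in the other libraries included a WNT ligand, a WNT inhibitor and a cyclin. Wnt6 fell by 0.72 on the log2 scale (SE 0.131, edgeR adjusted p = 0.0181, lower in 10 of 11 libraries). In the duct it was at 76.8 against 117 CPM, a ratio of 0.656 (0.481 to 0.879). Wif1, which binds WNT proteins outside the cell, fell by 0.49 (SE 0.108, edgeR adjusted p = 0.0475, lower in 10 of 11), and was at 95.7 against 142 CPM in the duct. Ccnd2 fell by 0.48 (SE 0.089, edgeR adjusted p = 0.0181, lower in 11 of 11), and was at 223 against 342 CPM in the duct. The others were the long non-coding RNA gene Gm33651 (-1.13), Slc1a3 (-0.98, or -0.59 without postnatal day 5), Abcg2 (-0.93), Dlk2 (-0.84), Igfbp2 (-0.67), Apoc1 (-0.50) and 1600014C10Rik (-0.52, lower in only 7 of 11).

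The duct library, which was not in that fit, had the same direction for most of these genes. Of the 26, 23 passed the level filter in the duct, and 22 of those had the same sign there, all but Dlk2, at 24.6 against 21.3 CPM. Over all 5085 genes tested in both, the sign was shared by 57.6%. Without postnatal day 5, 84 of 91 called genes that passed the filter in the duct had the same sign there, beside 59.1% of 4902 genes. In the reverse direction, 17 of the 24 highest and lowest genes of the duct had the same sign in the other libraries, and 4 of them were called: Slpi, Map1b, Ltbp2 and Dcn. Without postnatal day 5, Csrp2 (log2 -0.93, edgeR adjusted p = 0.00102), Igfbp4 (-0.53, 0.0335) and Scn7a (0.39, 0.0417) were called too. Csn3, past 2-fold in the duct, had a log2 difference of -0.12 over the 11 libraries (edgeR adjusted p = 0.999) and -0.34 without postnatal day 5 (edgeR adjusted p = 0.561).

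The number of genes called in the other libraries depended on single libraries. It was 4 without adult FVB/NJ replicate 1 (Slpi, Adamts1, Dcn and Gm33651, the only ones called whichever library was left out), 12 without adult C57BL/6 and 102 without postnatal day 5. Over all 21 alternatives Slpi and Adamts1 were called in 19 and Dcn in 18, and Gm33651 in 18 of the 19 that tested it. No gene was called without the library block or among cells with 5% or less luminal keratin, where 5 libraries remained. Then 22 and 243 genes had an unadjusted edgeR p under 0.05, with 6896 and 4108 genes tested. A share of about 0.05 would have such a p if no gene differed.

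Receptors and co-receptors of WNT and R-spondin that passed the level filter were at or slightly above the Lgr5-negative level. In the duct, 6 of 16 listed genes passed the level filter. None was past 2-fold, beside 0.0578% of all genes higher and 0.135% lower. All 6 were above 0 beside 49.0% of all genes tested, and their median log2 difference was 0.27 beside -0.01. Lgr4, a paralog of Lgr5, was at 60.9 against 41.8 CPM (ratio 1.46, 0.999 to 2.09), and Lgr6, another paralog, had a ratio of 1.004 (0.762 to 1.31) with 70 and 290 UMIs. Lrp5, a WNT co-receptor below the filter, was at 10.1 against 24.04 CPM (7 and 69 UMIs, ratio 0.422, 0.164 to 0.917). Ryk was at 87.0 against 61.0 CPM and Fzd7 at 106 against 94.8 CPM. In the other libraries 9 were tested and 0 were called, beside 0.377% of all genes, and all 9 were above 0, beside 51.95%, with a median of 0.23 beside 0.01. Without postnatal day 5, 8 of the 9 were above 0, with a median of 0.16 and 0 called.

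Secreted regulators and targets of the pathway varied. Of 19 feedback genes and inhibitors, 5 passed the filter in the duct with a median of 0.13. None was past 2-fold, beside 0.0578% of all genes higher and 0.135% lower. In the other libraries 1 of 9 was called, Wif1, beside 0.377% of all genes. Wif1 was called in 3 of the 11 fits that left out a library. Of 17 ligands, 3 passed in the duct, all below 0 where 49.0% of all genes were above it, at a median of -0.05. Of these, Wnt5a (ratio 0.973, 0.626 to 1.47) and Wnt5b (0.953, 0.571 to 1.53) had intervals that included equal levels. Elsewhere 1 of 5 was called, Wnt6, beside 0.377% of all genes. Of 14 effectors and targets, 8 were tested in each, with medians of -0.03 in both and 0 past 2-fold or called, beside the same shares of all genes. Axin2, a target of WNT signalling, was near the limit of detection, in 4.35% of members and 2.79% of Lgr5-negative cells. Tcf7 was at 11.6 against 30.3 CPM in the duct, and had a log2 difference of -0.20 in the other libraries (edgeR adjusted p = 0.943).

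Genes named as marks of mammary stem cells were near the Lgr5-negative level in the duct. Of 12 listed, 5 were tested and 0 were past 2-fold, beside 0.0578% of all genes higher and 0.135% lower. The median was 0.13 beside -0.01. Tspan8 was at 17.4 against 12.9 CPM (12 and 37 UMIs) and Bcl11b at 21.7 against 18.5 CPM (15 and 53 UMIs). Procr was at the limit of detection, at 1.74 CPM in Lgr5-negative cells. Elsewhere 0 of 6 were called, beside 0.377% of all genes. Tspan8 came nearest, with a log2 difference of 0.85 ± 0.201 and an edgeR adjusted p of 0.0755, and it was higher in 10 of 11 libraries. That difference was 0.46 without postnatal day 5 (edgeR adjusted p = 0.0976).

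No gene of the contractile apparatus was past 2-fold in the duct, beside 0.0578% of all genes past it higher and 0.135% lower. Of 18 genes, 14 were tested in the duct, 12 were above 0 beside 49.0% of all genes tested, and the median was 0.10 beside -0.01. Acta2, smooth-muscle actin, was at 9351 against 10119 CPM (ratio 0.924, 0.899 to 0.949), and Myh11, smooth-muscle myosin, at 710 against 660 CPM (1.08, 0.972 to 1.19). Oxtr was highest of the list by difference, at 449 against 323 CPM (1.39, 1.22 to 1.58). Over the 11 libraries 0 of 15 were called, beside 0.377% of all genes. Oxtr had a log2 difference of 0.49 ± 0.177 there (edgeR adjusted p = 0.447), which was 0.30 without postnatal day 5 (edgeR adjusted p = 0.240). With that library left out, where Acta2, Myh11 and Oxtr were higher in the Lgr5-positive cells, 2 of 15 were called beside 1.7% of all genes, Acta2 (log2 -0.22, edgeR adjusted p = 0.0210) and Myl9, a myosin light chain (-0.27, 0.0430), both lower.

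Basal identity genes were mostly slightly above the Lgr5-negative level. All 20 listed were tested in the duct, 17 were above 0 beside 49.0% of all genes tested, and the median was 0.11. None was past 2-fold, beside 0.0578% of all genes higher and 0.135% lower. In the other libraries 2 of 20 were called, Krt17 and Cxcl14, both higher, beside 0.377% of all genes tested, and the median was 0.17 beside 0.01 over all genes. Leaving out postnatal day 5, 5 of 20 were called, all higher, beside 0.751% of all genes, with Krt15, Dst and Lgals7 in addition. Of 36 genes of the basement membrane and matrix, 28 were tested in the duct with a median of 0.01. None was past 2-fold, beside 0.0578% of all genes higher and 0.135% lower. Below the filter, Tnc was at 18.8 against 4.18 CPM (13 and 12 UMIs, ratio 4.51, 1.90 to 10.8). Adamts5 was at 10.1 against 2.79 CPM (7 and 8 UMIs, ratio 3.64, 1.12 to 11.5). The intervals of the other genes below the filter included equal levels. Elsewhere 1 of 27 was called, Adamts1, beside 0.377% of all genes. When postnatal day 5 was left out, 5 of 26 were called beside 1.7% of all genes, Adamts1 and Postn higher and Col4a1, Col4a2 and Lama1, chains of basement membrane collagen and laminin, lower. Postn, on this list, was at 497 against 339 CPM in the duct (ratio 1.47, 1.29 to 1.66), and had a log2 difference of 0.33 ± 0.138 elsewhere (edgeR adjusted p = 0.552, higher in 10 of 11), or 0.45 without postnatal day 5 (edgeR adjusted p = 0.008115).

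The study named some genes for TEB and for duct basal cells from these libraries, so their direction is not independent evidence. Of the 4 TEB genes, 3 passed the level filter, all below 0 in members where 49.0% of all genes were above it, at a median of -0.58 and none past 2-fold. These were Ccnd2, Nrg1 (29.0 against 48.1 CPM, ratio 0.603, 0.357 to 0.968) and Meox1 (30.4 against 36.2 CPM). The fourth, Sema3b, a semaphorin, lay below the filter, at 5.80 against 32.4 CPM (4 and 93 UMIs, ratio 0.179, 0.0477 to 0.474). Outside the duct Ccnd2 was called lower, and Nrg1 had a log2 difference of -0.53 ± 0.123 (edgeR adjusted p = 0.0609), or -0.54 without postnatal day 5 (edgeR adjusted p = 0.00489). Of the 6 duct genes, 5 were above 0, beside 49.0% of all genes, with a median of 0.07 and 0 past 2-fold. None of the 6 was called elsewhere, beside 0.377% of all genes. In the 10 libraries without postnatal day 5, 3 of 6 were called beside 1.7% of all genes, Postn higher and Acta2 and Myl9 lower.

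Other gene groups had no member past 2-fold in the duct, beside 0.0578% of all genes higher and 0.135% lower. Lists of this size would mostly hold none at those shares. There, medians were 0.13 for 22 cell-cycle genes, 0.21 for 4 Notch genes, 0.10 for 16 genes of TGF-beta and BMP signalling and 0.03 for 15 growth factors and receptors, beside -0.01 over all genes. In the other libraries 0 of 19 cell-cycle genes were called, beside 0.377% of all genes, and 2 were above 0, beside 51.95%, at a median of -0.19. In the 10 libraries other than postnatal day 5, 6 of 15 were called, all lower, beside 0.951% of all genes: Rrm2 (log2 -1.40), Ube2c (-1.01), Cenpa (-0.98), Cenpf (-0.71), Pclaf (-0.68) and Hmgb2 (-0.38). In the duct these were at -0.31 for Rrm2 and 0.15 to 0.28 for the others. Over the 11 libraries, 0 of 6 Notch genes, 1 of 19 TGF-beta and BMP genes (Ltbp2, higher) and 1 of 18 growth factors and receptors (Igfbp2, lower) were called, beside 0.377% of all genes, and without postnatal day 5, 3 of 18 of the last group were called lower beside 0.951%, with Igfbp4 and Nrg1 in addition. Immediate early and heat-shock genes, which respond to tissue dissociation, were above 0 for 18 of 20 in members, beside 49.0% of all genes, at a median of 0.25. Elsewhere 0 of 20 were called, beside 0.377% of all genes. Without postnatal day 5, 2 of 20 were called higher beside 0.751% of all genes, Atf3 and Dusp1. The median mitochondrial share was 3.79% in members and 3.49% in Lgr5-negative cells, and the part of handling in the differences was not tested.

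Some genes of the luminal progenitor list were abundant in both groups of the duct, whereas the lists of other cell types were low there. The 12 luminal progenitor genes summed to 1478 CPM in members and 1823 CPM in Lgr5-negative cells, mostly from Lcn2, a secreted lipocalin, and Mfge8, a milk fat globule protein. Lcn2 was at 741 against 812.5 CPM, in 95.7% against 92.2% of cells, and Mfge8 at 585.5 against 802 CPM. Of the list, 5 were tested in the duct, all 5 below 0 where 49.0% of all genes were above it, at a median of -0.40. Csn3 was past 2-fold lower, beside 0.135% of all genes. Over the 11 libraries 0 of 7 were called, beside 0.377% of all genes, and none was above 0, beside 51.95%. Without postnatal day 5, 2 of 6 were called lower beside 0.951% of all genes, Lcn2 (log2 -0.27) and Mfge8 (-0.33). No mature luminal gene passed the filter in the duct (49.3 against 66.5 CPM summed over 12 genes). Of 3 tested elsewhere 0 were called, beside 0.377% of all genes. Without postnatal day 5 the 1 gene tested, Prlr, was called higher, beside 0.751% of all genes. Summed levels in members and Lgr5-negative cells were at most 18.5 CPM for 8 endothelial and 8 mural genes (10.1 CPM in members for both), and 1.45 and 4.53 CPM for 9 immune genes. They were 1.45 and 0 CPM for 5 erythroid genes and 4.35 and 2.79 CPM for 6 adipocyte genes. They were 89.9 and 81.9 CPM for 6 Schwann cell genes, nearly all from Sox10 (78.3 and 76.0 CPM), and 46.4 and 74.6 CPM for 12 genes of epidermis and hair follicle. In the other libraries no gene of these lists was called, with 5 tested among them, beside 0.377% of all genes. With so few tested, this does not show that such cells were absent there. Without postnatal day 5, adipocyte genes summed per library to 0 to 88.1 CPM in positive and 2.07 to 465 CPM in negative cells. Schwann cell genes summed to 17.4 to 229 and 16.6 to 558 CPM, and mural genes to 5.20 to 91.4 and 0 to 176 CPM. The part of such cells in the differences was not tested.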

How the data were processed

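The authors sequenced 10x Chromium 3′ libraries on a NextSeq 500 and deposited raw UMI counts per gene and barcode for barcodes with 500 or more reads. They used Cell Ranger, version 3.0.2 per the file headers of 16 libraries including the duct library and 3.1.0 for postnatal day 5 and pre-puberty. The submitters' processing notes name 3.1.0 and the genome build mm10. Gene positions were taken from GENCODE vM21 by Ensembl identifier.

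Members and gene lists were chosen with earlier results of these data known. In the duct and TEB libraries, cells of 5000 or more UMIs were thinned to 5000 at random, summed and scaled to CPM, and differences were taken as log2(CPM + 10) where the mean was 20 CPM or more. Ratios have exact conditional binomial intervals. Named genes were the 12 highest and 12 lowest in the duct (without the rule's genes, mitochondrial genes and unnamed gene models), up to 10 in each direction called elsewhere with 75% or more of libraries agreeing in direction, list members past either threshold and a set of basal, WNT and stem cell genes. The other called genes, and the genes of other list members given with values, were named after their values were seen. A gene that the rule would name is not reported here. No caller of doublets was run, and the study's upper limits were an alternative.

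The other libraries were tested with edgeR 4.0.16 (TMM, filterByExpr, quasi-likelihood, library as block), with DESeq2 1.42.0 as an alternative, in R 4.3.3. The scripts were first tested on simulated data. Matching found too few Lgr5-negative cells in the pre-puberty library, where 1093 were used per group, with median depths of 7371 and 6585 UMIs. The 11 libraries differ in stage and strain. The library block takes up their differences in level, and the spread of the Lgr5 contrast among them includes both. The study describes its repeat libraries as biological replicates, and the labels do not name the animals behind each. The edgeR p-values set the difference within a library against its spread over libraries. The permutation p-values set stages against the spread of Lgr5 between libraries. The fit without postnatal day 5 is printed beside results after its values were seen. The duct library shared up to 51 barcodes with any other library. Library totals ran from 9920346 to 93234616 UMIs, with 29525671 in the duct library.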

Additional observations from a re-analysis of the deposited data

How the results depend on the processing

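The share of duct basal cells with a Lgr5 UMI, 10.1% at 5000 UMIs, was 13.7% at 10000 UMIs, 5.08% at 2000, 19.3% without thinning and 13.8% without cells over 5% luminal keratin, and moved within its interval under the study's limits and without cycling cells. The counts of duct genes past 2-fold higher and lower, 3 and 7, were 31 and 34 at 2000 UMIs, 1 and 5 at 10000, 1 and 2 without thinning, 6 and 16 with a pseudocount of 5 CPM and 1 and 1 with 20, 2 and 1 at a mean of 50 CPM or more, and 44 and 58 with 2 or more Lgr5 UMIs. Without cells over 5% luminal keratin they were 456 and 421, from 17 and 70 cells, so that sums were small. They were 5 and 7 without cycling cells, and, in alternatives added after the data were seen, 6 and 5 without cells over 20% luminal keratin, 5 and 7 without cells holding 10 or more UMIs of the fibroblast list, a limit that Dcn itself largely set, and 4 and 12 without cells holding a UMI of that list other than Dcn. The 26 genes called in the other libraries were 349 without a filter on low counts, 80 without matching, 60 at 2000 UMIs, 3 in the 8 libraries with 50 or more Lgr5-positive cells, and 0 without the library block and without cells over 5% luminal keratin. Leaving out 1 library gave 4 (adult FVB/NJ replicate 1) to 102 (postnatal day 5), with 12 without adult C57BL/6, 15 without pregnancy day 12.5 replicate 2, 16 without SWISS and 17 without post-involution. The cause was not tested. The comparison of stages kept its side of the threshold under each alternative, with adjusted p from 0.133 to 0.286 over libraries left out. No paired analysis beyond the library block was made. The labels number no replicates, and the numbers used here follow the order of the samples. The study numbers its repeat libraries but does not say that equal numbers pair libraries across stages. With a median of 1 Lgr5 UMI per positive duct cell (209 UMIs in 142 cells), members and non-members cannot be fully separated.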
